A study of Mus musculus with 12 samples.

Results

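Neuropeptide and secretory granule genes are described here in adult mouse neural stem/progenitor cells (aNSPCs) cultured with or without NAD+. The 10 genes, Trh, Vgf, Penk, Npy, Sst, Scg2, Chgb, Ptprn, Pcsk1 and Bdnf, were found by gene name among the 55401 genes listed in both expression tables. They were chosen by function and selected on measured NAD+ differences of these data, which were known for some of them, so the NAD+ comparison of the 10 genes is a description that gives no p-value for any of them, and nothing is read from counts past a threshold. The aNSPCs came from the forebrain of C57BL/6 mice aged 8 to 10 weeks and were grown with EGF and FGF-2 as a primary culture. RNA-seq was done under proliferating conditions and after a switch to differentiation medium with retinoic acid (1 µM) and forskolin (5 µM). In both conditions cells received either no NAD+ (Ctrl) or NAD+ at 1 mM, which is the dose given in the study for its RNA-seq. Each of the 4 groups held 3 samples, 12 in all, and the time of RNA collection is not given in the sources used here. The treatment entry of every sample's label reads untreated, although 6 titles name NAD+, and the groups follow the titles. The study calls its samples biological repeats, but the sources used here do not say whether these were separate mice or separate cultures of the same cells, so p-values measure only the spread between these samples, which may be technical.

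Neuropeptides are made as larger precursors that enter the regulated secretory pathway, are packed into dense core granules and are cut there into active peptides. Granins such as Scg2, Chgb and Vgf help to form the granule, Ptprn spans its membrane, and convertases such as Pcsk1 and Pcsk2 cut the precursors before Cpe trims them. Many of these genes are known targets of cAMP signaling, in which protein kinase A phosphorylates CREB bound to a cAMP response element (CRE). Forskolin, a component of the differentiation medium, activates adenylyl cyclase and so raises cAMP, while REST is known to keep neuroendocrine genes silent in cells that are not neurons.

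The values are FPKM, the authors' measure of fragments relative to transcript length and to the mapped total of a sample, rounded to 0.01, so the depth of the samples is unknown and no counting error can be given. Genes were tested with limma on log2(FPKM + 0.1) where their FPKM averaged 0.1 or more in the fitted samples, and this scale understates the change of low genes. A gene was called at an adjusted p-value under 0.05, taken over all genes tested. Of the 10 genes, 6 passed the filter in each comparison (Trh, Vgf, Ptprn, Scg2, Chgb and Bdnf), and Penk, Npy, Sst and Pcsk1 did not. Trh passed under proliferating conditions only through its values in the NAD+ group. In the fit of all 12 samples it passed through the groups other than proliferating Ctrl, whose mean was under 0.1.

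The summed FPKM of a sample lay between 308828 and 363330, and the highest sum was that of proliferating Ctrl replicate 1. Of the markers of neural stem and progenitor cells, Nes (Nestin) had an FPKM of 47.8 to 80.9 in proliferating Ctrl, 62.5 to 97.0 in proliferating NAD+, 9.0 to 10.8 in differentiation Ctrl and 10.5 to 12.3 in differentiation NAD+, and Sox2 had 206 to 252, 213 to 219, 143 to 152 and 129 to 142 in the same order. The sum of 7 astrocyte markers was 583 to 682, 483 to 623, 1321 to 1407 and 1734 to 1860 in the same groups, and that of 9 neuronal markers was 28.0 to 38.2, 34.8 to 36.8, 37.8 to 42.8 and 36.9 to 37.5. Oligodendrocyte lineage markers (8 genes) summed to 334 to 378, 288 to 322, 229 to 246 and 158 to 166, and ependymal markers (3 genes) to 8.98 to 10.6, 9.04 to 9.78, 26.8 to 30.2 and 24.1 to 29.0. Markers of GABAergic neurons, microglia, endothelium, pericytes and fibroblasts, and red cells summed to at most 1.66 in any sample. Mitochondrially encoded genes took 16.4% to 19.9% of the summed FPKM in the proliferating samples, 28.9% to 29.8% in differentiation Ctrl and 29.5% to 33.2% in differentiation NAD+. As these are bulk samples, fewer cells of a type and less RNA per cell cannot be told apart.

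Because the differentiation medium holds forskolin, the promoters of the 10 genes were searched for the CRE, although cAMP was not measured. RefSeq promoter windows (GRCm38.p6, 250 bases before to 50 bases after each transcription start) were matched by symbol for 8 of the 10 genes, with 2 windows for Ptprn and 7 for Bdnf. Vgf and Penk have no window in the table. The CRE palindrome TGACGTCA reads the same on both strands, and its half-site was searched as TGACG on either strand (CGTCA on the other), with half-sites inside a palindrome not shown again. The palindrome was in the windows of 4 genes, shown here 5′ to 3′ on the strand of the gene with the palindrome in capitals.
Scg2: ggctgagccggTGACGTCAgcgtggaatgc
Chgb: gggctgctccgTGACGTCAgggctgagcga
Sst: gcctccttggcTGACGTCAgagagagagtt
Pcsk1: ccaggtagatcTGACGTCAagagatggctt

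The palindrome began 68 bases before the start in Scg2 (chr1:79440076-79440105, minus strand), 72 in Chgb (chr2:132781559-132781588, plus strand), 48 in Sst (chr16:23890874-23890903, minus strand) and 78 in Pcsk1 (chr13:75089768-75089797, plus strand). GENCODE M21, whose first exons reach further upstream, places the printed stretches of Scg2, Chgb and Sst within a noncoding exonic part of the gene and that of Pcsk1 outside it. Half-sites without a palindrome were found in Trh, Ptprn and one of the Bdnf windows, and are shown next in capitals, again on the strand of the gene.
Trh: cccggctctgcCGTCAgcgcccctgca
Ptprn, upstream half-site: ttacgccagtaTGACGcaaataggcat
Ptprn, downstream half-site: ggtggagatgtCGTCAttgcacgcctg
Bdnf: atgacagctcaCGTCAaggcagcgtgg

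These began 96 bases before the start in Trh (chr6:92244731-92244757, minus strand), 117 and 80 bases before it in Ptprn (chr1:75264310-75264336 and chr1:75264273-75264299, minus strand) and 35 bases before it in the Bdnf window 3 (chr2:109692390-109692416, plus strand). Pcsk1 held a further half-site 50 bases before its start, and the Npy window held neither motif. Over all RefSeq windows, 1.79% of 32851 windows and 2.03% of 27025 genes held the palindrome, and 23.0% of genes held a half-site, those inside a palindrome counted. Among the 8 genes matched here, 4 held the palindrome and 7 a half-site. As the genes were chosen by function and many are known cAMP targets, these counts are no test. In lists described below, 1 of 16 other granins and granule proteins held the palindrome. So did 2 of 47 other peptide precursors, 0 of 9 processing enzymes and 2 of 17 cAMP response genes. A match of letters is a description of the sequence and shows no binding.

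**Figure D1:**
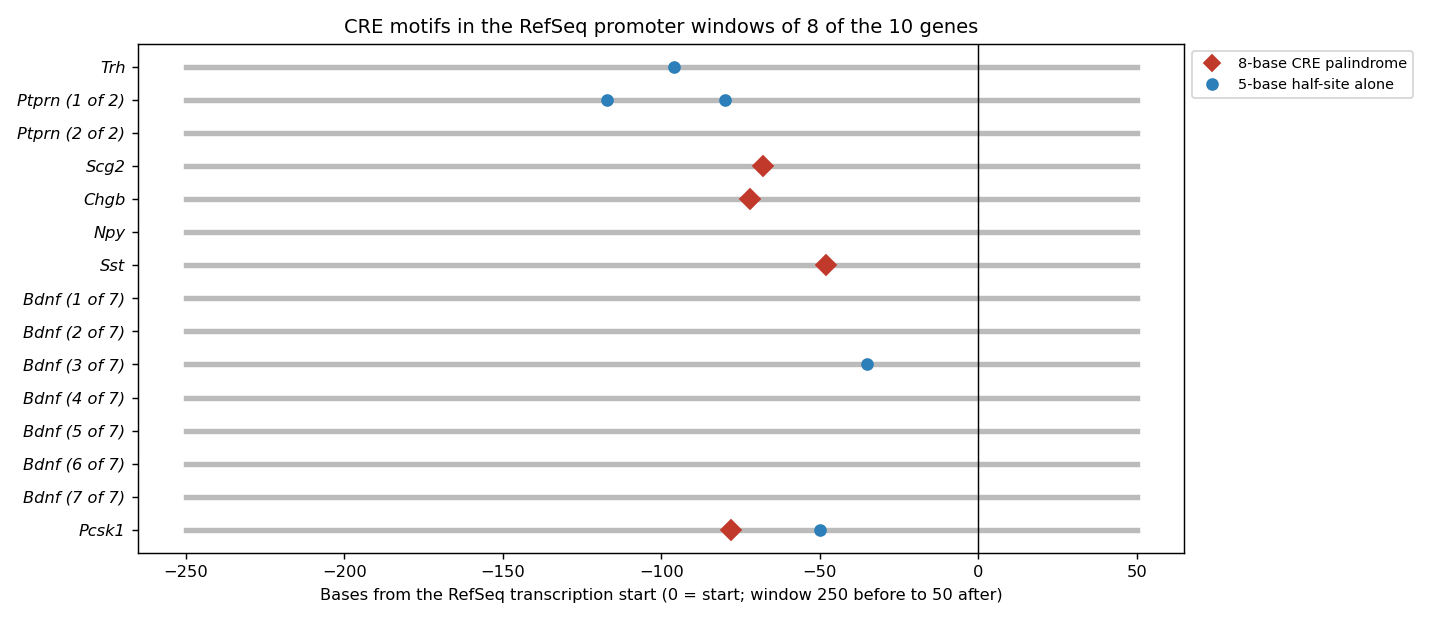
Positions of the 8-base CRE palindrome (diamonds) and of the 5-base half-site outside a palindrome (circles) in the RefSeq promoter windows of 8 of the 10 genes, in bases from the transcription start. Scg2, Chgb, Sst and Pcsk1 hold the palindrome between 48 and 78 bases before the start.

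Trh (ENSMUSG00000005892, mm10 chromosome 6 from 92242061 to 92244650, minus strand) encodes the precursor of thyrotropin-releasing hormone. Its FPKM was 0.12, 0 and 0.07 in the 3 proliferating Ctrl samples, 0.72, 1.24 and 0.46 in proliferating NAD+, 0.86, 1.25 and 0.63 in differentiation Ctrl, and 1.68, 1.67 and 2.22 in differentiation NAD+. Every NAD+ sample was above every Ctrl sample of the same condition, and proliferating Ctrl was at or near 0. The log2 fold change of NAD+ over Ctrl was 2.45 (standard error 0.44) under proliferating conditions and 0.98 (standard error 0.25) under differentiation conditions. At levels this low the size depends on the constant added before taking log2, here 0.1, and with 1 added the values were 0.74 and 0.59. In the Ctrl cells, Trh rose with differentiation by 2.66 on the log2 scale (standard error 0.37, limma adjusted p = 0.000112), and in the NAD+ cells by 1.19 (standard error 0.37, limma adjusted p = 0.0178), or by 0.84 and 0.68 with 1 added. As proliferating Ctrl averaged under the filter, Trh was tested in Ctrl only through groups where it was higher, which limits that p-value. The rise in the NAD+ cells was not called without proliferating NAD+ replicate 3 (log2 0.89, limma adjusted p = 0.0763) or without differentiation NAD+ replicate 3 (log2 1.06, limma adjusted p = 0.0623).

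Vgf (ENSMUSG00000037428, chromosome 5 from 137026392 to 137033351, plus strand) encodes a granin-like precursor that is cut into several peptides. Its FPKM was 0.39, 0.34 and 0.04 in proliferating Ctrl, 1.49, 1.13 and 0.95 in proliferating NAD+, 0.35, 0.36 and 0.30 in differentiation Ctrl, and 1.19, 0.87 and 1.10 in differentiation NAD+. The NAD+ samples lay above the Ctrl samples in both conditions, and the 2 conditions covered overlapping ranges within each treatment. The NAD+ log2 fold change was 2.03 (standard error 0.50) under proliferating and 1.39 (standard error 0.19) under differentiation conditions, or 0.81 and 0.62 with 1 added before log2. Between the conditions the log2 difference, differentiation minus proliferating, was 0.49 in Ctrl (95% confidence interval -0.40 to 1.37, limma adjusted p = 0.327) and -0.15 in the NAD+ cells (-1.04 to 0.74, limma adjusted p = 0.770). Proliferating Ctrl replicate 3, at 0.04, decides the sign of the first value, which was -0.091 without it and 0.10 with 1 added.

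Penk (ENSMUSG00000045573, chromosome 4), Npy (ENSMUSG00000029819, chromosome 6) and Sst (ENSMUSG00000004366, chromosome 16) encode the precursors of the enkephalins, of neuropeptide Y and of somatostatin. Penk was listed at 0 in 7 of the 12 samples and reached 0.14 at most. Npy was listed at 0 in 10 samples and reached 0.09, and Sst was listed at 0 in 9 samples and reached 0.06. No group of any of the 3 genes was above 0 in all its samples. Exact two-sided permutation tests of differentiation against proliferating samples gave p = 1.0 for the 3 genes in Ctrl and for Npy and Sst in NAD+, and p = 0.4 for Penk in NAD+, and no p under 0.1 is possible with 3 samples against 3. For Npy in both treatments and for Sst in Ctrl a single value was above 0, so no other p was possible and these tests show nothing.

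Scg2 (ENSMUSG00000050711, chromosome 1 from 79434669 to 79440120, minus strand) encodes secretogranin II, a granin that also gives rise to the peptide secretoneurin. Its FPKM was 0.30, 0.38 and 0.45 in proliferating Ctrl, 1.24, 0.51 and 0.59 in proliferating NAD+, 1.51, 1.34 and 1.47 in differentiation Ctrl, and 2.08, 1.84 and 2.00 in differentiation NAD+. All NAD+ values were above the Ctrl values of their condition, by little under proliferating conditions apart from replicate 1. The NAD+ log2 fold change was 0.81 (standard error 0.34) under proliferating conditions and 0.43 (standard error 0.11) under differentiation conditions. Without replicate 1 of both proliferating groups, a setting added after the data were seen, the first of these was 0.34, and with 1 added before log2 both were lower (0.35 and 0.29). Differentiation raised Scg2 by 1.70 on the log2 scale in Ctrl (standard error 0.26, limma adjusted p = 0.000216) and by 1.33 in the NAD+ cells (standard error 0.26, limma adjusted p = 0.00114), with no overlap between the conditions in either treatment. With 1 added these rises were 0.83 and 0.76.

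Chgb (ENSMUSG00000027350, chromosome 2 from 132781278 to 132795079, plus strand) encodes chromogranin B, a major soluble protein of dense core granules. Its FPKM was 2.22, 1.01 and 1.07 in proliferating Ctrl, 1.73, 0.87 and 1.02 in proliferating NAD+, 9.51, 9.68 and 9.02 in differentiation Ctrl, and 11.31, 9.68 and 10.55 in differentiation NAD+. The differentiation samples were all more than 4 times as high as any proliferating sample, while Ctrl and NAD+ overlapped in both conditions. Chgb rose with differentiation by 2.72 on the log2 scale in Ctrl (standard error 0.28, limma adjusted p = 1.09e-05) and by 3.07 in the NAD+ cells (standard error 0.28, limma adjusted p = 3.46e-06). The NAD+ log2 fold change was -0.20 (standard error 0.37) under proliferating and 0.16 (standard error 0.07) under differentiation conditions, and the former was 0.14 without proliferating Ctrl replicate 1.

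Ptprn (ENSMUSG00000026204, chromosome 1 from 75247027 to 75264502, minus strand) encodes IA-2, a transmembrane protein of the granule with a catalytically inactive phosphatase domain. Its FPKM was 8.22, 6.27 and 6.61 in proliferating Ctrl, 28.91, 14.74 and 15.07 in proliferating NAD+, 9.32, 9.69 and 9.35 in differentiation Ctrl, and 18.78, 19.14 and 18.64 in differentiation NAD+. The NAD+ samples lay above the Ctrl samples in both conditions, with proliferating NAD+ replicate 1 far above the other 2 samples. The NAD+ log2 fold change was 1.40 (standard error 0.27) under proliferating conditions and 0.99 (standard error 0.05) under differentiation conditions. Between the conditions, the log2 difference was 0.43 in Ctrl (95% confidence interval -0.04 to 0.90, limma adjusted p = 0.106) and 0.02 in the NAD+ cells (-0.45 to 0.49, limma adjusted p = 0.946). Without proliferating NAD+ replicate 1, both differences were called, at 0.43 (limma adjusted p = 0.00281) and 0.34 (limma adjusted p = 0.0190). With quantile normalization of all samples the difference in Ctrl was called as well (0.65, limma adjusted p = 0.0314). An antisense gene, Gm28294, shares 189 exon bases with Ptprn and reached an FPKM of at most 0.57. As the sources used here do not state whether strand was used in counting, reads of the pair cannot be told apart.

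Pcsk1 (ENSMUSG00000021587, chromosome 13 from 75089826 to 75134861, plus strand) encodes prohormone convertase 1/3, which makes the first cuts in many peptide precursors. It was listed at 0 in 7 of the 12 samples, and its highest FPKM was 0.03. Exact permutation tests of differentiation against proliferating samples gave p = 1.0 in Ctrl and p = 0.3 in NAD+. In Ctrl a single value was above 0, so no other p was possible there. Its partner Pcsk2 and the trimming enzyme Cpe are described with the processing enzymes.

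Bdnf (ENSMUSG00000048482, chromosome 2 from 109674700 to 109727007, plus strand) encodes brain-derived neurotrophic factor, a growth factor for neurons that is stored in and released from dense core granules. Its FPKM was 0.84, 1.16 and 0.89 in proliferating Ctrl, 0.73, 0.76 and 0.78 in proliferating NAD+, 0.35, 0.43 and 0.52 in differentiation Ctrl, and 0.47, 0.33 and 0.39 in differentiation NAD+. All differentiation values were below all proliferating values, and Ctrl and NAD+ overlapped under differentiation conditions. Bdnf fell with differentiation in Ctrl (log2 fold change -0.996, standard error 0.19, limma adjusted p = 0.00111) and in the NAD+ cells (-0.80, standard error 0.19, limma adjusted p = 0.00430), with values of -0.45 and -0.33 when 1 was added before log2. The NAD+ log2 fold change was -0.30 (standard error 0.19) under proliferating conditions and -0.10 (standard error 0.22) under differentiation conditions. An antisense gene, Gm45346, shares 896 exon bases with Bdnf and reached an FPKM of at most 0.03.

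**Figure D2:**
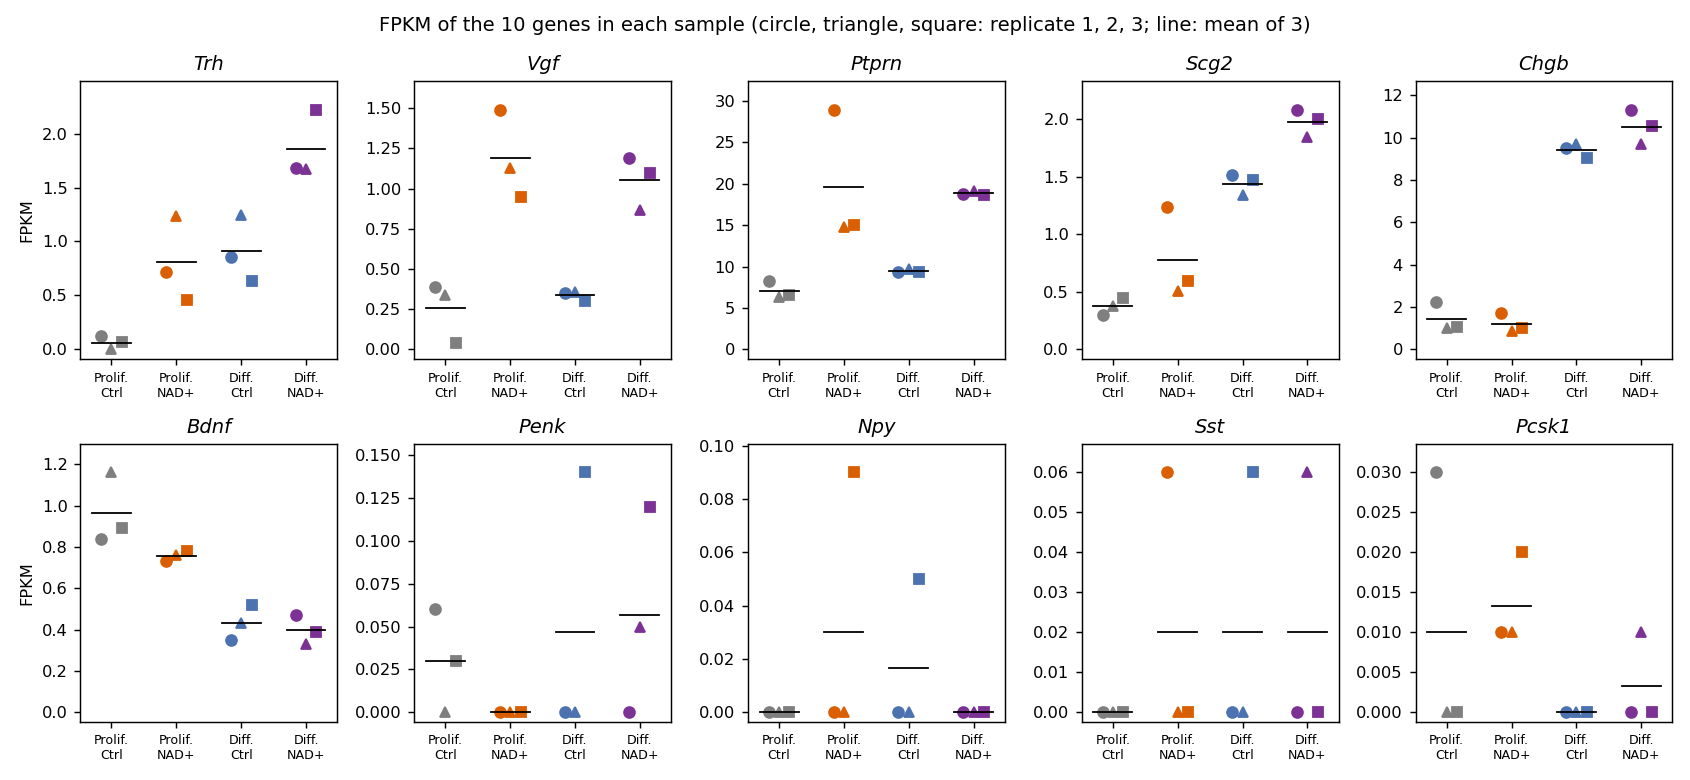
FPKM of the 10 genes (linear axes, one scale per gene) in each of the 12 samples, with circles, triangles and squares for replicates 1, 2 and 3 and a line at the mean of 3. Trh, Vgf and Ptprn are higher with NAD+ in both conditions, Chgb and Scg2 are higher and Bdnf is lower under differentiation conditions, and the highest Pcsk1 value is 0.03.

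FPKM is a level per kilobase, so the genes can be ordered within a group. In proliferating Ctrl, mean FPKM ran from Ptprn (7.03 ± 1.04, SD, n = 3) through Chgb (1.43 ± 0.68), Bdnf (0.963 ± 0.172), Scg2 (0.377 ± 0.075) and Vgf (0.257 ± 0.189) to Trh (0.0633 ± 0.0603). The sample ranges of Chgb and Bdnf overlapped, as did those of Scg2 and Vgf and of Vgf and Trh. In differentiation Ctrl, Ptprn (9.45 ± 0.21) and Chgb (9.40 ± 0.34) were level with each other, followed by Scg2 (1.44 ± 0.09) and Trh (0.913 ± 0.313), which did not overlap, and by Bdnf (0.433 ± 0.085) and Vgf (0.337 ± 0.032), which did. In differentiation NAD+, the order was Ptprn (18.9 ± 0.26), Chgb (10.5 ± 0.82), Scg2 (1.97 ± 0.12), Trh (1.86 ± 0.31), Vgf (1.05 ± 0.17) and Bdnf (0.397 ± 0.070), with an overlap between Scg2 and Trh alone among neighbours.

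To ask how NAD+ related to these genes as a group, the counts are set beside those of all tested genes, and nothing is read from them, as the genes were selected on this contrast. Under proliferating conditions, limma called 0 of the 6 tested genes at an adjusted p-value under 0.05, where 0.0484% of all 18597 tested genes were called higher and 0.0968% lower. Before adjustment, p-values were under 0.05 for 3 of the 6 genes and for 15.4% of all tested genes. The 3 NAD+ values lay above the 3 Ctrl values for 4 of the 6 genes and below them for Bdnf, against 15.5% and 8.59% of all genes. The median log2 fold change of the 6 genes was 1.10, and that of all tested genes 0.07.

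Under differentiation conditions, 2 of the 6 genes (Ptprn and Vgf) were called higher, against 2.27% of 19611 tested genes, and none lower, against 4.65%. Before adjustment, 4 of the 6 and 24.2% of all tested genes had a p-value under 0.05. The NAD+ values lay above the Ctrl values for 4 of the 6 genes (9.68% of all genes) and below them for none (21.1% of all genes). The median log2 fold change was 0.71 over the 6 genes and -0.08 over all tested genes. Without differentiation Ctrl replicate 1 or without differentiation NAD+ replicate 3, 1 of the 6 genes was called, Ptprn. In these samples the sum of 7 astrocyte markers was also higher with NAD+, mainly through Gfap (595 ± 48 to 977 ± 19 FPKM, log2 0.72) and Slc1a3 (330 ± 9.0 to 424 ± 7.1, log2 0.36). Among the other markers, limma called Slc1a2 higher (log2 0.26) and Aldh1l1 lower (log2 -0.61), and S100b (0.17), Aqp4 (-0.31) and Gja1 (-0.46) were not called. The part of these markers in the values of the 6 genes was not tested.

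The NAD+ log2 fold change under differentiation conditions minus that under proliferating conditions, from a fit of all 12 samples, was negative for Trh (-1.47, standard error 0.53), Vgf (-0.64, standard error 0.57), Ptprn (-0.41, standard error 0.30) and Scg2 (-0.38, standard error 0.37), and positive for Chgb (0.36, standard error 0.40) and Bdnf (0.20, standard error 0.27). Limma called 0 of the 6, against 0.467% of 19498 tested genes, and Trh alone had an unadjusted p-value under 0.05, as did 15.5% of all tested genes. With 1 added before log2, the difference was -0.16 for Trh, -0.19 for Vgf and -0.064 for Scg2.

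Differentiation against proliferating conditions was not the contrast on which the genes were selected. It uses the same samples as the NAD+ contrast, however, so its p-values are not free of that selection. Limma called 3 of the 6 tested genes higher (Trh, Scg2 and Chgb) and Bdnf lower in Ctrl, where 25.0% of all 19498 tested genes were called higher and 31.6% lower. Trh passed the filter only through groups other than proliferating Ctrl. The same 4 genes were called in the NAD+ cells with the same directions, against 20.8% of all genes higher and 37.6% lower, and these 2 comparisons rest on different samples but share 1 estimate of the spread. Without replicate 1 of both proliferating groups, 5 genes were called in each treatment, Ptprn being added as higher, and 5 were called in Ctrl with quantile normalization, where Ptprn was again the addition. The median log2 change of all genes was -0.06 in Ctrl and -0.20 in NAD+ with the deposited values, and 0.06 in both with median-ratio scaling. Relative to the median of all genes as deposited, Trh changed by 2.72 and 1.39, Scg2 by 1.76 and 1.53, Chgb by 2.78 and 3.28 and Bdnf by -0.94 and -0.59. With median-ratio scaling, 52.1% of called genes were higher in Ctrl and 51.3% in NAD+, against 44.2% and 35.6% as deposited. As the conditions sit in separate tables, a step applied per table cannot be told apart from the condition. The sum of the 7 astrocyte markers and the mitochondrial share were both higher under differentiation conditions, and their parts in these values were not tested. Gfap went from 17.5 to 20.2 FPKM in proliferating Ctrl to 546 to 642 in differentiation Ctrl. Of the 7 markers, limma called 5 higher in each treatment, did not call Aldh1l1, and called S100b lower (log2 -0.78 in Ctrl and -0.45 in NAD+). S100b was not called with quantile normalization.

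**Figure D3:**
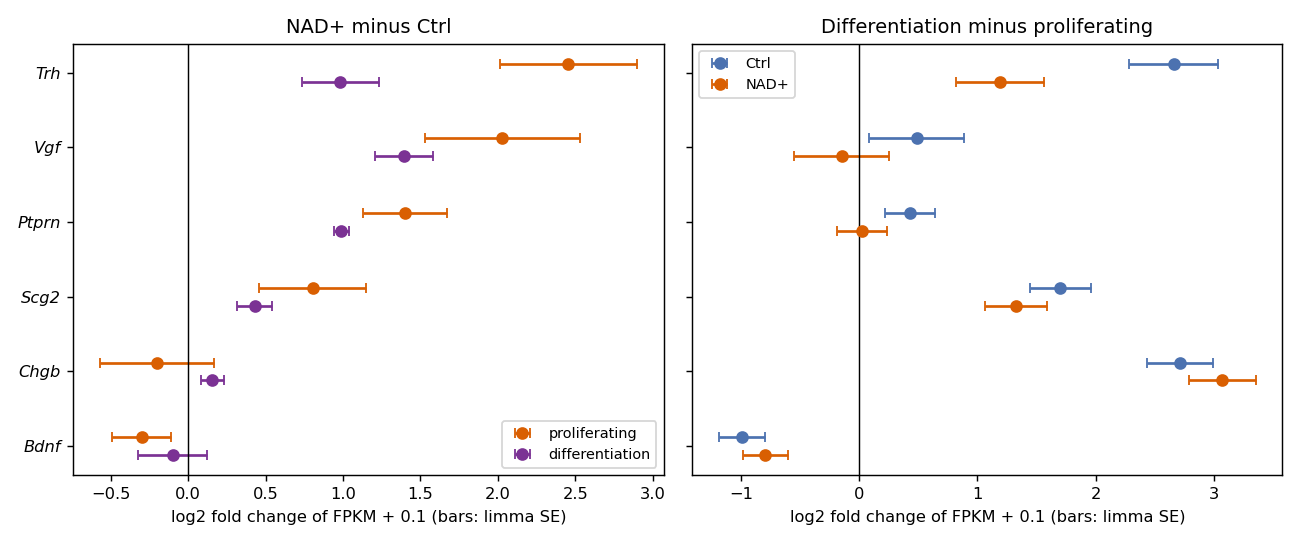
Log2 fold changes of FPKM + 0.1 with limma standard errors for the 6 tested genes, NAD+ minus Ctrl in each condition (left) and differentiation minus proliferating in each treatment (right). Chgb is at 2.72 in Ctrl and 3.07 with NAD+ on the right and near 0 on the left.

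Replicate 1 of the proliferating groups stood apart in several of these genes. Chgb was 2.13 times as high in replicate 1 as in the mean of replicates 2 and 3 in proliferating Ctrl and 1.83 times in proliferating NAD+. For Ptprn the ratio was 1.28 and 1.94, and for Scg2 it was 0.723 and 2.25. The astrocyte markers Aqp4 (2.48 and 3.80), Gja1 (2.43 and 2.09) and Aldh1l1 (1.75 and 1.81) were higher in replicate 1 of the same groups, where 5 of 7 astrocyte markers in Ctrl and 7 of 7 in NAD+ had their highest value. The other 2 in Ctrl, Slc1a3 (0.841) and Slc1a2 (0.899), were lowest in replicate 1. Of 8 oligodendrocyte lineage markers, 4 in Ctrl and 5 in NAD+ were also highest in replicate 1, and 3 and 2 were lowest. The part of the astrocyte markers in the values of replicate 1 was not tested. In the differentiation groups the ratio of Chgb, Ptprn and Scg2 stayed close to 1.

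**Figure D4:**
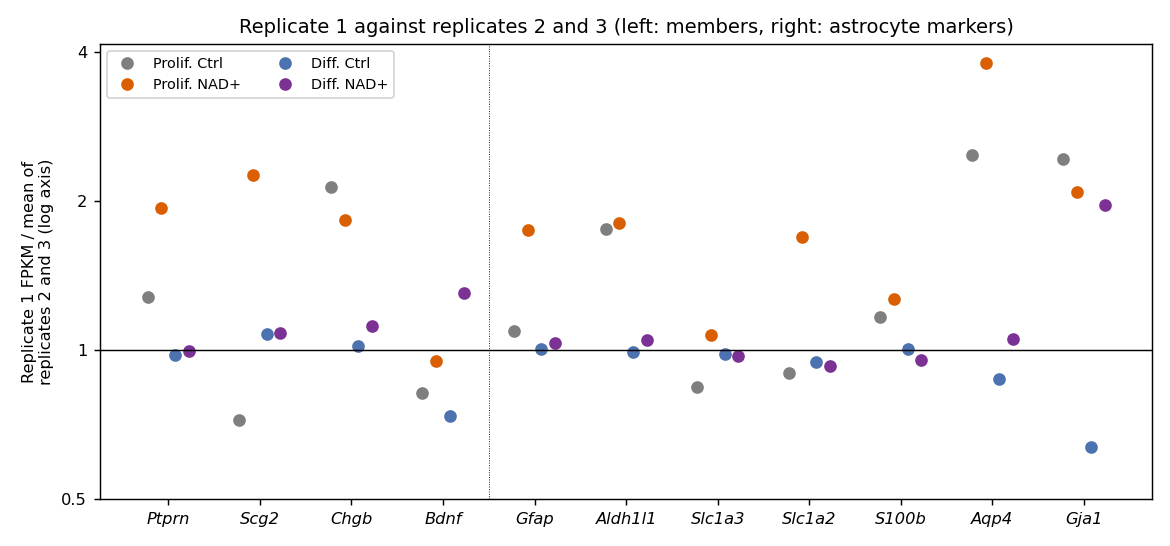
FPKM of replicate 1 divided by the mean of replicates 2 and 3 in each group (log axis) for Ptprn, Scg2, Chgb and Bdnf and for 7 astrocyte markers. In the proliferating groups, Chgb (2.13 and 1.83), Aqp4 (2.48 and 3.80) and Gja1 (2.43 and 2.09) are above 1 in both. The astrocyte markers Slc1a3 (0.841) and Slc1a2 (0.899) are below 1 in proliferating Ctrl.

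For the 3 members with a mean FPKM of at least 1, the genes with the most similar pattern were sought by Pearson's r of log2(FPKM + 0.1) over the 12 samples. The search covered the 12928 genes of that level, which include the 3 members, and no member was picked. For Ptprn these were Cd68 (r = 0.969), Timp1 (0.930) and Sqstm1 (0.923). For Scg2 they were Ube4a (0.986), Kcnn3 (0.983) and Zfp974 (0.981), and for Chgb they were Agt (0.997), Ddr1 (0.996) and Slc22a4 (0.996). The points share libraries, groups and tables, so these values are descriptions.

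The remaining genes of the pathway were taken from lists set by function, in all 167 genes of 9 lists. Under proliferating conditions limma called 0 of their 97 tested genes with NAD+, where 0.0484% of all tested genes were called higher and 0.0968% lower. An unadjusted p-value under 0.05 was found for 13 of the 97 and for 15.4% of all tested genes. The NAD+ effect differed between conditions at an adjusted p-value under 0.05 for 0 of 102 list genes and for 0.467% of all tested genes. Before adjustment, 18 of the 102 and 15.5% of all tested genes had a p-value under 0.05. With quantile normalization limma called 1 list gene with NAD+ under proliferating conditions, Rcor2 (log2 -0.57, limma adjusted p = 0.0497). It called the difference between conditions for 3, namely Ptprn2, Junb and Dusp1. This difference was also called for 1 with 1 added before log2 and for 2 without proliferating Ctrl replicate 1. Without replicate 1 of both proliferating groups it was called for 2, Junb and Ptprn2. The lists are described for NAD+ under differentiation conditions and for the step from proliferating to differentiation conditions. Over all tested genes, limma called 25.0% higher and 31.6% lower with differentiation in Ctrl, and 20.8% and 37.6% in the NAD+ cells. With NAD+ under differentiation conditions it called 2.27% higher and 4.65% lower, and 24.2% had an unadjusted p-value under 0.05. The list counts below were not tested against these shares. A call in 1 condition and none in the other does not show that the NAD+ effect differed between them.

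Among 21 other granins and granule proteins, 18 were tested between the conditions. In Ctrl, 5 rose with differentiation and 1 fell (5 and 4 with quantile normalization). Scg3, a granin that binds Chga, rose from 44.5 ± 3.8 to 88.0 ± 7.1 FPKM (SD, n = 3; log2 fold change 0.98, limma adjusted p = 2.75e-06), and Pcsk1n, the precursor of the Pcsk1 inhibitor proSAAS, from 26.7 ± 6.1 to 52.5 ± 3.0 (log2 0.99, limma adjusted p = 7.70e-05). Ptprn2, the paralog of Ptprn, rose by 1.93 and Rab27b, a GTPase of granule docking, by 1.91, while Chga, chromogranin A, rose by 0.48 on the log2 scale. Syt9, a calcium sensor of granule release, fell from 4.44 ± 0.48 to 1.69 ± 0.09 FPKM (log2 -1.34, limma adjusted p = 1.55e-05). In the NAD+ cells 4 of the 18 rose, namely Ptprn2, Rab27b, Scg3 and Pcsk1n, and 4 fell, namely Syt9, Sytl4, Rab27a and Hid1, of which Hid1 (-0.29) turned to 0.06 with quantile normalization. The median log2 change of the list was 0.20 in Ctrl and 0.19 in the NAD+ cells, and it depended on scaling (0.32 and 0.38 with median-ratio scaling, 0.013 and 0.080 with quantile normalization).

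Ptprn2 was, with NAD+ under differentiation conditions, the one gene of 17 tested on this list that rose, and none fell, with a list median of -0.09 beside -0.08 over all tested genes (0.010 for the list with quantile normalization). Its FPKM was 4.86, 4.91 and 5.91 in Ctrl and 9.33, 9.67 and 10.1 in NAD+ (log2 fold change 0.88, standard error 0.09, limma adjusted p = 0.00721). The groups did not overlap. Under proliferating conditions Ptprn2 was 1.06, 1.51 and 1.36 in Ctrl and 1.42, 1.54 and 1.23 in NAD+, so that the groups overlapped, and its NAD+ effects in the 2 conditions differed by 0.79 (limma adjusted p = 0.110). That difference was 0.99 with quantile normalization (limma adjusted p = 0.0414), 0.73 with 1 added before log2 (0.0465) and 0.92 without proliferating Ctrl replicate 1 (0.0386), and its adjusted p-value ran from 0.0372 to 0.238 over all settings tried.

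Of 13 prohormone processing enzymes, 12 were tested and 7 rose with differentiation in Ctrl, with a list median of 0.53. Cpe, the carboxypeptidase that trims cut peptides, was by far the most abundant gene of the lists and rose from 619 ± 77 to 3135 ± 92 FPKM (SD, n = 3; log2 2.35, limma adjusted p = 3.32e-08). Pcsk6, a convertase of the constitutive pathway, rose by 2.42, Pcsk2, the granule convertase prohormone convertase 2, by 1.08 from a low level (0.23 ± 0.04 FPKM), and Ctsl, a lysosomal and granule protease, by 1.13. Qpct, which forms the amino-terminal pyroglutamate of peptides such as TRH, fell from 8.71 ± 1.17 to 4.75 ± 0.61 FPKM (log2 -0.86, limma adjusted p = 6.39e-05). In the NAD+ cells 7 rose and 3 fell, with a list median of 0.40 (0.69 with median-ratio scaling, 0.73 with quantile normalization), but of the 3 that fell Pam and Pcsk7 were not called with either scaling alternative and turned to above 0 with quantile normalization. With NAD+ under differentiation conditions, Cpd, a carboxypeptidase of the Golgi, rose from 28.3 ± 0.19 to 42.6 ± 1.4 FPKM (log2 0.59, limma adjusted p = 0.00370) and Pcsk6 from 12.8 ± 0.35 to 17.6 ± 0.22 (log2 0.46, limma adjusted p = 0.00741). None of the other 10 enzymes was called, and the list median was 0.07 (0.16 and 0.15 with the same alternatives).

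**Figure D5:**
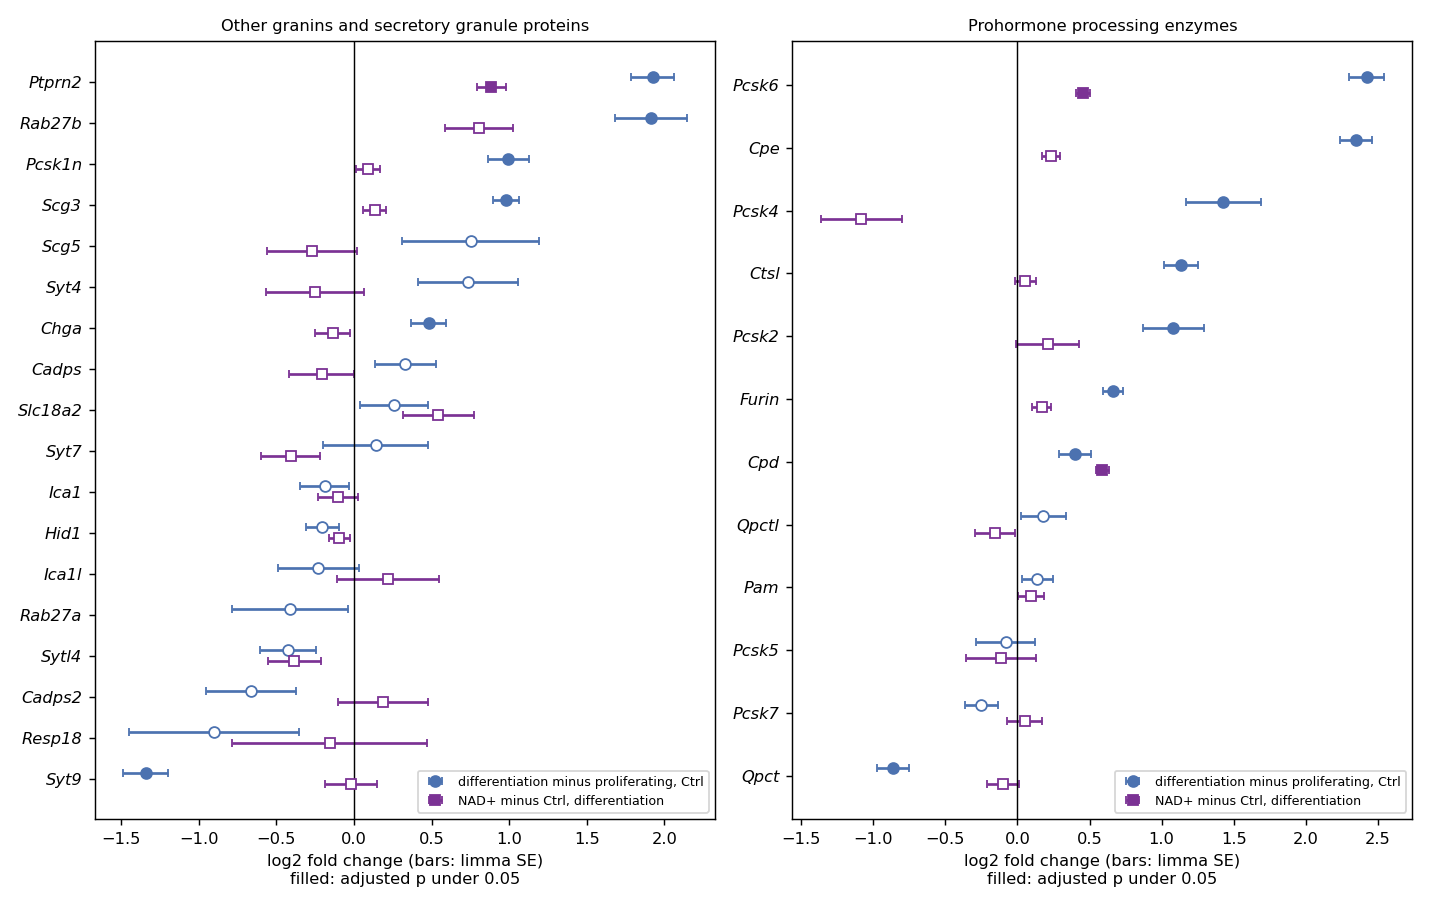
Log2 fold changes with limma standard errors of the tested granule proteins (left) and processing enzymes (right), for differentiation minus proliferating in Ctrl (circles) and NAD+ minus Ctrl under differentiation conditions (squares), filled where the adjusted p-value was under 0.05. Cpe and Pcsk6 have the highest circles on the right (2.35 and 2.42), and Ptprn2, Cpd and Pcsk6 are the filled squares.

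Most other peptide precursors were near 0, and 17 of 57 were tested between the conditions. In Ctrl 6 rose and 5 fell with differentiation. The counts were the same in the NAD+ cells, but not all the genes that rose were the same. Nppa, for example, was called higher in Ctrl alone and Gnrh1 in the NAD+ cells alone. With median-ratio scaling, 6 rose and 4 fell in Ctrl, and 8 rose and 4 fell in the NAD+ cells. With quantile normalization the counts were 5 and 5, and 5 and 6. The list medians were 0.41 and 0.58, or 0.099 and 0.35 with quantile normalization. Nmb, the precursor of neuromedin B, rose from 2.55 ± 0.73 to 11.6 ± 0.66 FPKM (SD, n = 3; log2 2.17, limma adjusted p = 2.21e-06), and Npff, the precursor of neuropeptide FF, from 1.73 ± 0.82 to 6.19 ± 0.51 (log2 1.91, limma adjusted p = 0.000423). Adm, the precursor of the vasodilator adrenomedullin, fell from 10.5 ± 1.9 to 0.697 ± 0.644 FPKM (log2 -4.01, limma adjusted p = 2.78e-05), and Apln, the precursor of apelin, from 8.45 ± 1.62 to 1.19 ± 0.22 (log2 -2.73, limma adjusted p = 1.12e-06). Pmch was listed at 0 in all 6 differentiation samples and at a mean of 0.20 FPKM in proliferating Ctrl. Npvf, which encodes RFamide-related peptides, rose in Ctrl by 1.38 (limma adjusted p = 0.00145) and was the one precursor of 15 tested that passed with NAD+ under differentiation conditions, from 3.13, 2.08 and 2.89 to 4.06, 5.76 and 5.30 FPKM (log2 0.88, limma adjusted p = 0.0471, and 0.116 with a replicate block). The median of the 15 was 0.01, and 0.076 and 0.082 with the scaling alternatives.

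Receptors of the peptides encoded by the 10 genes were mostly near 0, with 5 of 19 tested. Ntrk2, the receptor of BDNF, was abundant and rose with differentiation from 52.2 ± 1.6 to 190 ± 8.9 FPKM in Ctrl (SD, n = 3; log2 1.86, limma adjusted p = 5.46e-08) and from 49.1 ± 7.3 to 177 ± 8.2 in the NAD+ cells (log2 1.86, limma adjusted p = 4.27e-08). Sort1, which sorts the BDNF precursor, rose by 0.60 and 0.35, and Npy1r, a neuropeptide Y receptor, fell from 0.697 ± 0.108 to 0.223 ± 0.133 FPKM in Ctrl (log2 -1.40, limma adjusted p = 0.00979). Limma called 0 of the 5 with NAD+ under differentiation conditions, with 1 at an unadjusted p-value under 0.05.

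Peptide degrading enzymes (14 genes, 10 tested) split evenly in Ctrl, with 4 that rose, including the endothelin-converting enzyme Ece1 (log2 1.08, limma adjusted p = 8.26e-07), and 4 that fell, including the prolyl endopeptidase Prep (log2 -1.35, limma adjusted p = 2.94e-07). In the NAD+ cells 3 rose and 4 fell, and with NAD+ under differentiation conditions limma called 0, with 5 at an unadjusted p-value under 0.05. The list medians were 0.06, -0.27 and -0.14, and with median-ratio scaling 0.18, -0.022 and -0.056.

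Genes known to respond to cAMP (20 genes) form a further list. As cAMP was not measured, its part in their values was not tested. With differentiation, 7 of 19 tested rose and 5 fell in Ctrl, and 8 rose and 4 fell in the NAD+ cells, with medians of 0.37 and 0.07, the latter being 0.35 with median-ratio scaling and 0.29 with quantile normalization. Junb, a transcription factor of the AP-1 family, rose by 1.74 and Sik1, a kinase that restrains CREB coactivators, by 1.70, while Dusp1, a phosphatase of MAP kinases, fell by 2.33 on the log2 scale in Ctrl. With NAD+ under differentiation conditions, 4 of 18 tested rose and 1, the phosphodiesterase Pde4a, fell, with a list median of 0.16. Junb had 10.74, 11.14 and 10.96 FPKM in Ctrl and 34.0, 29.44 and 32.64 in NAD+ (log2 1.54, limma adjusted p = 0.000805). Fos, also of the AP-1 family, rose by 0.69 (limma adjusted p = 0.00616), Nr4a3, an orphan nuclear receptor, by 1.41 (limma adjusted p = 0.0124) and Dusp1 by 1.10 (limma adjusted p = 0.0316). With the replicate block Nr4a3 (0.0503), Dusp1 (0.0748) and Pde4a (0.0651) had limma adjusted p-values above the threshold, and Pde4a (0.0525) also with median-ratio scaling.

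Of the 11 genes of the CREB family and its cofactors, Creb1 itself had 4.05 ± 1.74 FPKM in proliferating Ctrl and 3.73 ± 0.34 in differentiation Ctrl (log2 -0.03, limma adjusted p = 0.928). In Ctrl 4 genes rose with differentiation (Crebbp, Crtc2, Crtc1 and Crtc3, the largest by 0.70) and 2 fell (Creb5 and Atf1), whereas in the NAD+ cells 2 rose and 4 fell, and 5 rose and 3 fell with median-ratio scaling. A single gene fell with NAD+ under differentiation conditions, Creb3l1, from 2.27 ± 0.44 to 0.760 ± 0.182 FPKM (log2 -1.47, limma adjusted p = 0.0153), and none rose. The list medians were 0.27, -0.08 and -0.08, and with median-ratio scaling 0.40, 0.19 and 0.0032, so that the signs of the latter pair depended on scaling.

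Of the 10 genes of the REST repressor complex, Rest had 4.45 ± 1.13 FPKM in proliferating and 4.35 ± 0.15 in differentiation Ctrl (log2 0.00, limma adjusted p = 0.998). Of the list, 2 genes rose and 6 fell in Ctrl (3 fell with quantile normalization), and 1 rose and 7 fell in the NAD+ cells, with medians of -0.39 and -0.60 (-0.0065 and -0.18 with quantile normalization). Hdac2, a histone deacetylase, fell by 1.24 on the log2 scale in Ctrl (limma adjusted p = 2.08e-07). Rcor2, a corepressor of REST, fell with NAD+ under differentiation conditions from 13.4 ± 0.61 to 7.65 ± 1.05 FPKM (log2 -0.81, limma adjusted p = 0.0120), Kdm1a, a histone demethylase, by 0.28 and Hdac2 by 0.25 on the log2 scale, the latter pair not being called with median-ratio scaling, and the list median was -0.09, or -0.0057 with that scaling.

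Across the genome, genes with the palindrome are set beside all genes with a window, which include them. Of 413 tested genes with the palindrome in a RefSeq window, 21.1% rose with differentiation in Ctrl and 43.3% fell, against 25.5% and 36.7% of all 11657 tested genes with a window. In the NAD+ cells 18.6% rose and 50.4% fell, against 21.4% and 43.8%. With NAD+ under differentiation conditions 2.48% of 404 such genes were called higher, against 2.88% of 11651 genes with a window. These shares are descriptions without a test, they rest on calls that depend on scaling, and the part of the palindrome in any change was not tested.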

How the data were processed

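The authors mapped RNA-seq reads of 12 aNSPC samples (NEBNext Ultra libraries) to mm10 with Hisat2 2.0.5, kept uniquely mapped reads, counted them with FeatureCounts 2.0.1 and deposited FPKM values per sample, rounded to 0.01, in a table for each condition. The program behind the FPKM values is not given in the sources used here. All 12 FPKM columns were used. The deposited columns of the authors' own comparison (fold change, its log2, p-value, q-value and marks) were not used. The 2 tables share 55401 gene IDs, and 55141 of these were found in GENCODE M21 (mm10), the source of gene positions. Promoter windows came from RefSeq on GRCm38.p6.

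No further scaling was applied. Genes whose FPKM averaged 0.1 or more were fitted on log2(FPKM + 0.1) with limma 3.58.1 in R 4.3.3 (variance trend, two-sided, Benjamini-Hochberg over all tested genes), for NAD+ against Ctrl within each condition and, in 1 fit of 12 samples, for the conditions and the difference of the NAD+ effects. Genes under the filter had an exact two-sided permutation test of mean FPKM. The members and lists were chosen with earlier results of these data known. Named list genes were the called ones with the largest changes, up to 5 a direction in each list and comparison, while Creb1, Rest and genes named for losing a call were picked with their values in view. Some list genes are not reported here. The fits were tested on simulated data. Alternatives were 1 added before log2, no filter, a minimum mean FPKM of 1, median-ratio scaling, quantile normalization, the replicate number as a block and each sample left out. Python 3.11.15 with pandas 2.3.3, numpy 2.4.6, matplotlib 3.10.9 and scipy 1.17.1 made the tables and figures.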

Additional observations from a re-analysis of the deposited data

How the results depend on the processing

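Of the values recomputed for the 6 tested genes, 456 kept their direction and their side of the threshold, 7 passed it where the deposited values did not, 4 no longer passed and 10 changed sign. Called members with NAD+ under differentiation conditions were 2, 1 with a minimum mean FPKM of 1, which removed Vgf, and 1 to 2 with a sample left out. Called members between conditions were 4 in each treatment, 2 with that minimum, which removed Trh and Bdnf, 5 in Ctrl with quantile normalization, and 4 to 5 (Ctrl) and 3 to 5 (NAD+) with a sample left out. With 1 added before log2, NAD+ effects of Trh under proliferating conditions were 0.74 in place of 2.45 and of Vgf 0.81 in place of 2.03. Genes called over the whole table with NAD+ under proliferating conditions numbered 27, with 9 without the filter, 75 with the minimum of 1, 59 with quantile normalization, 1 without both replicate 1 samples and 0 to 36 with a sample left out. Under differentiation conditions they numbered 1357, with 328 to 719 when a sample was left out. The difference of the effects was called for 91 genes, 139 with 1 added, 405 without both proliferating replicate 1 samples and 12 to 195 with a sample left out. The cause of these shifts was not tested. The values that changed sign had adjusted p-values above the threshold in every one of those settings. For NAD+ they were Chgb under proliferating conditions (-0.47 to 0.14 with a sample left out), Bdnf under differentiation conditions (0.025 with quantile normalization, and -0.22 to 0.015 with a sample left out) and the difference of effects of Scg2 (0.092 without both replicate 1 samples). Between conditions they were Vgf in Ctrl (-0.091 to 0.81 with a sample left out), Vgf in NAD+ (0.12 with median-ratio scaling, 0.011 without both replicate 1 samples, and -0.29 to 0.011 with a sample left out) and Ptprn in NAD+ (-0.15 to 0.34 with a sample left out).

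Scaling moved the share of NAD+ calls that were higher from 32.8% to 53.2% (median-ratio) and 49.96% (quantile) under differentiation conditions, from 33.3% to 21.2% and 27.1% under proliferating conditions, and from 47.3% to 75.3% and 68.9% for the difference of effects. With either scaling, 3 of the 6 members were called higher with NAD+ under differentiation conditions, Scg2 being the addition. Over all 19611 tested genes, 609 (median-ratio) and 580 (quantile) were called higher. Nothing is read from these counts, as the genes were selected on this contrast. With the replicate number as a block, 0, 758 and 26 genes were called with NAD+ under proliferating conditions, under differentiation conditions and for the difference of effects, and no call of the 6 tested genes changed. Deviations of same-numbered samples correlated at 0.02 to 0.11 (proliferating) and 0.03 to 0.04 (differentiation), where every differentiation sample, but not every proliferating one, correlated best with its own number. The main fits did not pair the samples, and these values cannot tell whether the numbers pair the differentiation samples. Rounded FPKM values without counts limit what can be said of Penk, Npy, Sst and Pcsk1.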
